A study of Homo sapiens with 6 samples.

Results

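Mitophagy receptor genes were examined in human stem cell-derived cardiomyocytes exposed to alcohol, with or without losartan. The genes described are BNIP3, BNIP3L, FUNDC1, BCL2L13, FKBP8, PHB2 and PINK1, matched by gene symbol. These are 7 of the 21134 genes in the expression table, and all 7 passed the filter on low counts. RNA sequencing covered 6 libraries of cells labelled hiPSC-CMs, with 2 libraries in each of 3 groups. Control cells received no treatment, alcohol-treated cells received 100 mM alcohol for 24 h, and co-treated cells received 100 mM alcohol with 1 μM losartan, a blocker of the angiotensin II type 1 receptor, for 24 h. Losartan without alcohol was not analysed here. The labels give the line as H9 in all groups, which is known as a human embryonic stem cell line although the labels call the cells induced pluripotent, so the data describe 1 line. No source used here says that the repeats were separate cultures, and the p-values then measure only the spread between these libraries, which may be technical.

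The expected counts, which are estimated reads per gene, summed to between 4898287 and 5051448 per library. All 13 cardiomyocyte markers examined were above 1 FPKM (fragments scaled by transcript length and by library size) in every library. Their summed level was 31206 FPKM at the highest, in control replicate 2, and 22203 FPKM at the lowest, in alcohol replicate 2. MYL7 was the largest part of each sum, at 16180 FPKM in control replicate 2 and 9321 in alcohol replicate 2. The 4 smooth muscle markers summed to 1927 and 1689 FPKM in control, 1451 and 722 after alcohol, and 991 and 1036 with losartan added, and the lowest of these was again alcohol replicate 2. Of the other lists, fibroblast markers summed to between 421 and 518 FPKM, endothelial markers to between 5.88 and 10.5, pluripotency markers to between 10.4 and 19.3, and endoderm or liver markers to between 36.7 and 49.4. No marker was at 0 in all libraries, but VWF of the endothelial list, SOX2 of the pluripotency list and FOXA2 of the endoderm list were at 0 in at least 1. By chi-square, the expected counts of the alcohol replicates differed most from each other. It was 7.64 per degree of freedom there, against 4.71 in control and 4.64 in co-treated cells. On log2 counts scaled to library size, replicates correlated alike. Pearson r was 0.975 in alcohol-treated cells, 0.975 in co-treated cells and 0.978 in control.

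Mitophagy is the removal of whole mitochondria by autophagy, and a heart muscle cell, which is packed with mitochondria, depends on it to clear damaged ones. In the ubiquitin-dependent route the kinase PINK1 collects on depolarized mitochondria and phosphorylates ubiquitin there, and adaptor proteins bind the ubiquitin chains. In the receptor route BNIP3, BNIP3L (also called NIX), FUNDC1, BCL2L13 and FKBP8 sit in the outer mitochondrial membrane and PHB2 in the inner membrane, and each binds the LC3 or GABARAP proteins of the growing autophagosome directly. BNIP3 and BNIP3L are known targets of the hypoxia-inducible factor HIF-1, which binds short sequences with the core ACGTG or GCGTG.

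The upstream part of the BNIP3 promoter is printed because BNIP3 was the member whose level varied most between libraries and because of the density of that core in it. The stretch lies at chr10:131982014-131982173 on the minus strand (RefSeq, GRCh38.p14), from 250 to 91 bases before the RefSeq start of BNIP3. Capitals mark each match to the core on either strand.
BNIP3 promoter: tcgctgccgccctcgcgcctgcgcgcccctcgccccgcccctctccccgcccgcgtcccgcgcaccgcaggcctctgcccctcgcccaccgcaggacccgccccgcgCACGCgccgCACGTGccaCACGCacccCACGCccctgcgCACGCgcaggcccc
The core was found at 5 places, all between 143 and 100 bases before the start. Of these, 4 read CACGC on the printed strand, which is GCGTG on the other. The remaining one, CACGTG at 134 to 129, holds ACGTG on both strands and was counted once. Among 35116 RefSeq promoters searched over the same 250 bases, 43.2% held the core at 1 place or more and 0.80% at 5 places or more, while 6.34% held CACGTG. These shares are a description, because the stretch was printed in part for this density. The promoters were not matched for base composition. RefSeq promoters were at hand for 4 of the 7 genes, with 7 start sites. PHB2 had no match at either of its 2 starts, FUNDC1 had none at its 1 start, and BCL2L13 had 1 match at 1 of its 3 starts. PINK1, BNIP3L and FKBP8 had no entry. A match describes the letters only, and no binding was measured.

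The members differed widely in level. By the median FPKM over the 6 libraries, BNIP3 was first at 152, followed by PHB2 at 93.5, FKBP8 at 65.6, PINK1 at 52.2, BNIP3L at 51.4, FUNDC1 at 28.4 and BCL2L13 at 12.6. FPKM is scaled by transcript length, so these levels can be set side by side. Only 2 neighbouring pairs in this order had overlapping ranges. BNIP3 was above PHB2 in 5 of 6 libraries and below it in alcohol replicate 2, and PINK1 was above BNIP3L in 3 of 6. BNIP3 supplied 42.2% and 31.9% of the summed FPKM of the 7 genes in control, 29.5% and 13.1% after alcohol, and 39.3% and 35.1% after co-treatment. In alcohol replicate 2 PHB2 held the largest share at 28.9%. The ratio of highest to lowest library was 4.70 for BNIP3 and 1.70 for BNIP3L, and between 1.18 and 1.32 for the other 5 members.

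**Figure D1:**
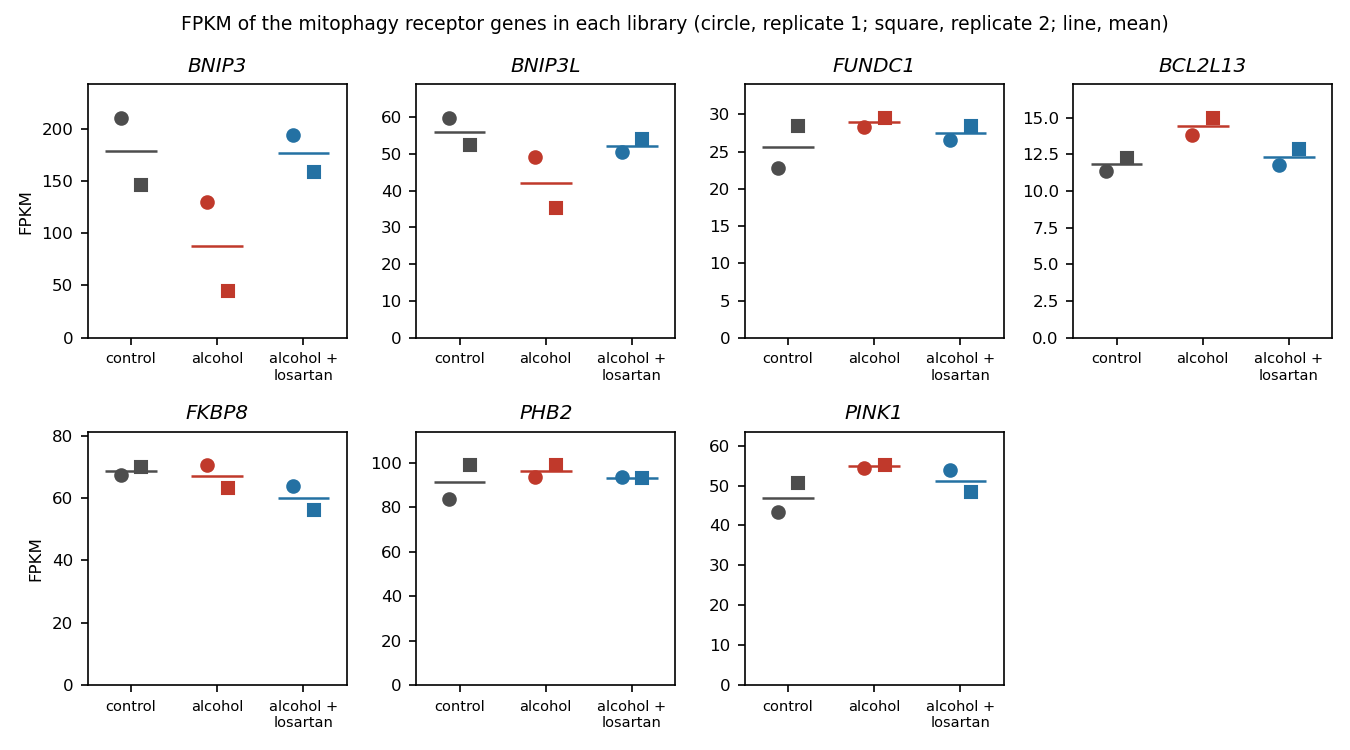
FPKM (vertical axes from 0, 1 panel per gene) of the 7 mitophagy receptor genes in the 2 libraries of control, alcohol and alcohol plus losartan; circles are replicate 1, squares replicate 2 and lines the mean of the group. BNIP3 ranges from 44.9 to 211 FPKM with its lowest point in alcohol replicate 2, and PHB2 from 83.8 to 99.05 FPKM.

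Across all genes, few differences passed the test. Genes were tested with the quasi-likelihood F test of edgeR with Benjamini-Hochberg adjustment over 14926 genes, and a gene was called at an adjusted p under 0.05. Alcohol against control called 10 genes (0.0670%), co-treated against alcohol 2 (0.0134%), co-treated against control 54 (0.362%), and both alcohol groups together against control 83 (0.556%). None of the 7 genes was called in any of the 4 comparisons by edgeR, and DESeq2 and limma also called 0. At an unadjusted p under 0.05, 2 of 7 differed between alcohol and control (BNIP3 and BNIP3L, both lower), where 11.0% of all genes did. There was 1, BNIP3, between co-treated and alcohol cells (5.55% of all genes), 0 between co-treated and control cells (12.6%), and 0 between both alcohol groups and control (13.5%). The libraries of the groups did not overlap in CPM (counts scaled to library size, TMM-normalised) for 4, 5, 1 and 0 of the 7 in the same order, where 43.8%, 33.6%, 43.3% and 23.2% of all genes did not. The median log2 fold change of the 7 was 0.04, -0.08, -0.02 and 0.01, and that of all genes lay between -0.01 and 0.00. The comparisons share libraries and are not independent of each other.

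BNIP3 (chr10:131967684-131981923), an outer membrane receptor of the BH3-only family, stood at 211 and 146 FPKM in control, 129.8 and 44.9 after alcohol, and 194 and 158 with losartan added. Both alcohol libraries were below the other 4, and they differed from each other more than the control libraries did. As a percentage of the control mean, alcohol replicate 1 reached 72.7% and alcohol replicate 2 25.1%, while the co-treated libraries reached 109% and 88.7%. The group means were 178 ± 45.6 FPKM in control, 87.3 ± 60.0 after alcohol and 176 ± 25.5 with losartan added (SD, n = 2 each). The fitted log2 fold change was -1.05 (SE 0.34, edgeR adjusted p = 0.266) for alcohol against control and 0.99 (SE 0.34, adjusted p = 0.836) for co-treated against alcohol, which use the same alcohol libraries. For co-treated against control it was -0.07 (SE 0.34, adjusted p = 0.960), and for both alcohol groups against control -0.56 (SE 0.29, adjusted p = 0.426). These sizes rest on alcohol replicate 2. Leaving it out brought the value for alcohol against control to -0.46 and that for co-treated against alcohol to 0.39. Without alcohol replicate 1 the values were -2.06 (adjusted p = 0.000487) and 1.99 (adjusted p = 0.00189), and the lone library was then assumed to vary like the other groups. Alcohol replicate 2 also had the lowest cardiomyocyte and smooth muscle marker sums, but the cardiomyocyte markers did not move together. MYL7, NPPA, MYL2, TNNI3, ACTN2 and TTN were at their lowest in that library, while MYH6, TNNI1 and NKX2-5 were at their highest. The part of cell composition in the BNIP3 values was not tested. In bulk RNA, fewer cells of a type and less RNA per cell cannot be told apart. BNIP3 overlaps PPP2R2D in RefSeq, which was at 3.92 to 5.72 FPKM, and no source used here states whether counting used the strand.

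BNIP3L, the close paralog of BNIP3 on chromosome 8 that is best known for clearing mitochondria from maturing red cells, stood at 59.8 and 52.2 FPKM in control, 49.2 and 35.1 after alcohol, and 50.5 and 54.0 with losartan added. Its lowest value was again alcohol replicate 2, at 62.7% of the control mean. The log2 fold change was -0.44 (SE 0.16, edgeR adjusted p = 0.328) for alcohol against control and 0.29 (SE 0.16, adjusted p = 0.915) for co-treated against alcohol. Leaving out alcohol replicate 2 brought the first value to -0.19, and leaving out alcohol replicate 1 brought it to -0.74 with an adjusted p of 0.0341. The second value became 0.04 and 0.59 in the same order. For co-treated against control it was -0.15 (SE 0.16, adjusted p = 0.767).

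The FPKM ratio of BNIP3 to BNIP3L, a measure within a library that library size does not touch, was 3.52 and 2.80 in control, 2.64 and 1.28 after alcohol, and 3.85 and 2.93 with losartan added. BNIP3 was thus the more abundant paralog in all 6 libraries, by the least in alcohol replicate 2. On the log2 scale the mean ratio was 1.65 ± 0.23 in control, 0.88 ± 0.74 after alcohol and 1.75 ± 0.28 with losartan added (SD, n = 2 each). The difference between alcohol and control was -0.77 (exact permutation test, two-sided, p = 0.333), and 0.333 is the smallest p that 2 against 2 libraries allow. Co-treated cells differed from alcohol by 0.87 (exact permutation p = 0.333) and from control by 0.10 (exact permutation p = 0.667). Both alcohol groups together differed from control by -0.34 (exact permutation p = 0.80, smallest possible 0.133). Without alcohol replicate 2 the first difference was -0.25 and the second 0.35.

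The other receptors of the outer membrane showed small differences. FUNDC1 (chrX:44523639-44542859), a receptor known for hypoxia-induced mitophagy, stood at 22.9 and 28.4 FPKM in control, 28.4 and 29.6 after alcohol, and 26.6 and 28.5 with losartan added. Of the 4 treated libraries 2 lay between the controls and 2 just above them, and the log2 fold change for alcohol against control was 0.14 (SE 0.16, edgeR adjusted p = 0.822), with 0.01 without control replicate 1 and 0.30 without control replicate 2. BCL2L13 (chr22:17628877-17730855), regarded as a mammalian counterpart of the yeast receptor Atg32, stood at 11.4 and 12.3 FPKM in control, 13.8 and 15.0 after alcohol, and 11.8 and 12.9 with losartan added. Both alcohol libraries were above the other 4, opposite to BNIP3. The log2 fold change was 0.24 (SE 0.13, edgeR adjusted p = 0.528) for alcohol against control and -0.22 (SE 0.13, adjusted p = 0.915) for co-treated against alcohol. FKBP8 (chr19:18531763-18543573), an FK506-binding protein of the outer membrane, stood at 67.5 and 70.1 FPKM in control, 70.7 and 63.4 after alcohol, and 63.8 and 56.3 with losartan added. Here the co-treated libraries were below both controls. The log2 fold change was -0.08 (SE 0.12, adjusted p = 0.876) for alcohol against control and -0.25 (SE 0.12, adjusted p = 0.444) for co-treated against control.

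PHB2 (chr12:6965327-6970753), prohibitin 2, which becomes a receptor when the outer membrane ruptures, was the steadiest member. It stood at 83.8 and 99.05 FPKM in control, 93.7 and 99.05 after alcohol, and 93.4 and 93.0 with losartan added. All 4 treated libraries lay between the control libraries, the upper bound included. The log2 fold change was 0.04 (SE 0.12, edgeR adjusted p = 0.945) for alcohol against control. For co-treated against control it was -0.02 (SE 0.12, adjusted p = 0.969), a value whose sign turned with library totals in place of TMM (0.03).

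PINK1, the kinase of the ubiquitin-dependent route, had its highest values in the alcohol libraries. PINK1 (chr1:20633458-20651511) stood at 43.3 and 50.6 FPKM in control, 54.4 and 55.2 after alcohol, and 53.9 and 48.3 with losartan added. The alcohol libraries were above both controls, and the co-treated libraries overlapped them. The log2 fold change was 0.18 (SE 0.12, edgeR adjusted p = 0.628) for alcohol against control and -0.11 (SE 0.12, adjusted p = 0.954) for co-treated against alcohol. PINK1-AS, an antisense gene that overlaps PINK1, was at 20.0 and 23.6 FPKM in control, 23.6 and 21.8 after alcohol, and 22.5 and 25.7 with losartan added. If counting did not use the strand, reads from the stretch where PINK1 and PINK1-AS overlap cannot be told apart.

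**Figure D2:**
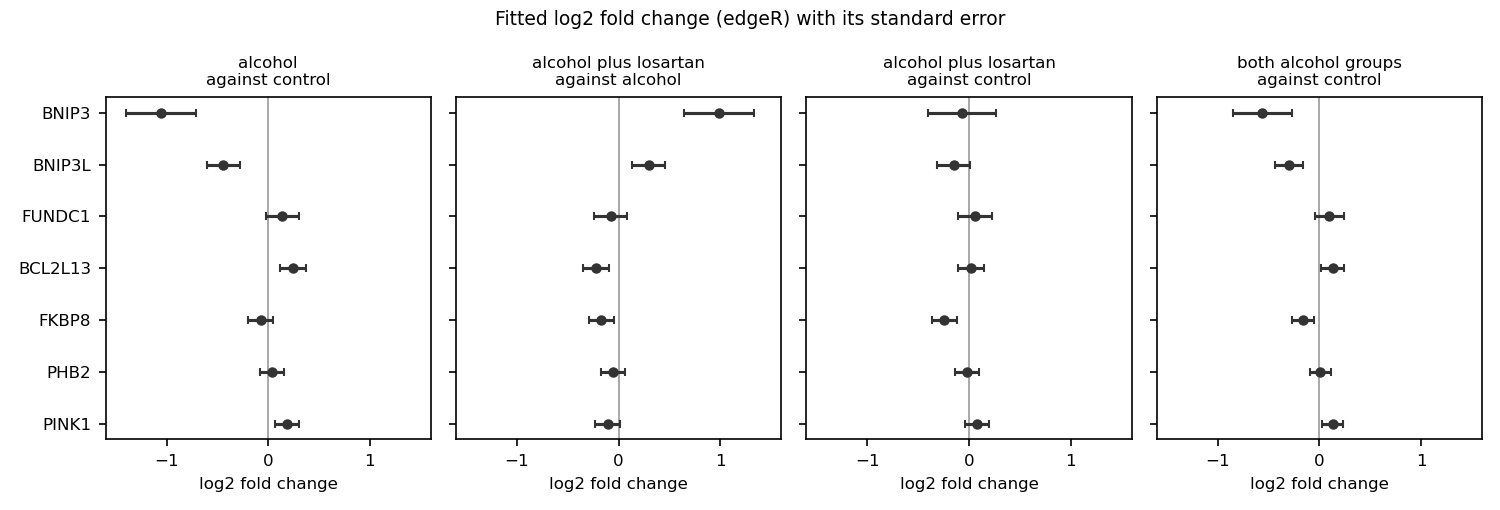
Log2 fold change fitted by edgeR (horizontal axes) for the 7 genes in each of the 4 comparisons; points are the estimates and bars 1 standard error. BNIP3 is at -1.05 for alcohol against control and 0.99 for alcohol plus losartan against alcohol, PINK1 is at 0.18 for alcohol against control, and no point passed the adjusted threshold.

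Among the members, BNIP3 and BNIP3L varied together over the 6 libraries (Pearson r of log2 CPM = 0.95). BNIP3 and BCL2L13 varied in opposite directions (r = -0.83), and FUNDC1 and PHB2 together (r = 0.89). These values describe 6 libraries that share groups and a like depth, and alcohol replicate 2 is the library farthest from the others in BNIP3.

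Of 2759 other tested genes whose log2 CPM spanned at least 1 over the libraries, 82 had an r with BNIP3 above 0.9, and 37 had a higher r than BNIP3L. BNIP3L spanned less than 1 and was not among the 2759, so the 37 do not give its rank among all tested genes. The 5 highest were RIMKLA (0.99), SLFN13 (0.99), MIR210HG (0.99), HILPDA (0.99) and WIPF3 (0.98). HILPDA encodes a lipid droplet protein known to be induced by hypoxia, and MIR210HG is the host gene of the hypoxia-induced miR-210. How many of the 82 genes are known for hypoxia was not tested. HILPDA stood at 11.6 and 9.21 FPKM in control, 8.63 and 4.18 after alcohol, and 12.1 and 8.62 with losartan added. MIR210HG stood at 14.7 and 10.1 FPKM in control, 9.71 and 4.71 after alcohol, and 12.1 and 10.1 with losartan added. RIMKLA stood at 5.05 and 3.3 FPKM in control, 3.38 and 1.51 after alcohol, and 4.41 and 3.82 with losartan added. For SLFN13 the values were 6.17 and 5.11, 4.68 and 3.24, and 5.66 and 5.13 FPKM in the same order. For WIPF3 they were 2.07 and 1.58, 1.49 and 1.01, and 2.01 and 1.72 FPKM. Each of the 5 had its lowest value in alcohol replicate 2, as BNIP3 did, which follows from choosing them by their likeness to BNIP3 over the same libraries. For the same reason their log2 fold changes for alcohol against control are a description, and they lay between -0.81 and -0.54, and none passed the test (edgeR adjusted p from 0.308 to 0.574). RefSeq promoters were at hand for 3 of them, with the core searched above at 2 places in MIR210HG, 1 in RIMKLA and none in WIPF3.

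**Figure D3:**
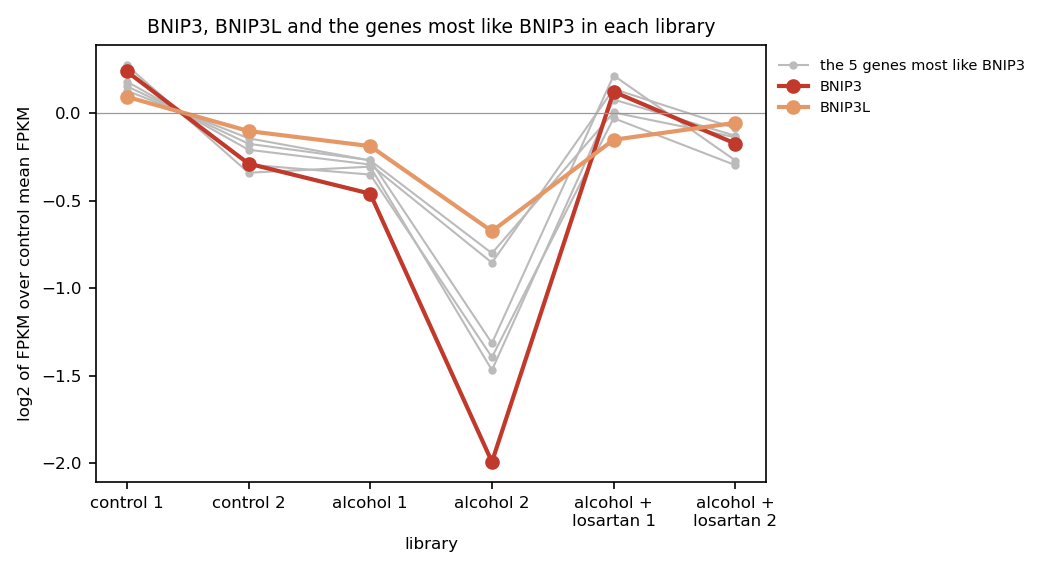
Log2 of FPKM over the mean control FPKM (vertical axis) in each of the 6 libraries for BNIP3, BNIP3L and the 5 genes whose log2 CPM was most like that of BNIP3; lines join values of 1 gene and carry no order. BNIP3, BNIP3L and the 5 like genes are lowest in alcohol replicate 2, where BNIP3 is at 25.1% of its control mean.

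Genes that act with the members were read from 11 further lists. No gene of these lists was called by edgeR in any of the 4 comparisons. The counts below are for alcohol against control unless stated, the unadjusted counts stand against the 11.0% of all genes given above, and 2 genes are named from each list by the smallest unadjusted p. The range after a median is that with each of the 6 libraries left out in turn.

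The list of ubiquitin-binding adaptors, which link ubiquitin-tagged mitochondria to the autophagosome, also held the kinase TBK1. It had 5 of 6 genes at a positive log2 fold change and 2 at an unadjusted p under 0.05, with a median of 0.17 (0.16 to 0.25). SQSTM1, encoding p62, stood at 45.3 and 44.9 FPKM in control, 58.5 and 72.65 after alcohol, and 61.5 and 50.0 with losartan added. Its log2 fold change was 0.50 (SE 0.13, edgeR adjusted p = 0.173). CALCOCO2, encoding the adaptor NDP52, stood at 10.4 and 12.9 FPKM in control, 13.8 and 21.4 after alcohol, and 15.6 and 16.1 with losartan added, with a log2 fold change of 0.56 (SE 0.18, adjusted p = 0.257). For both genes all 4 alcohol-exposed libraries were above the controls. With both alcohol groups against control, the libraries did not overlap in CPM for 23.2% of all genes. In that comparison all 6 genes of the list had a positive value and again 2 had an unadjusted p under 0.05, where 13.5% of all genes did.

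The LC3 and GABARAP genes, whose products the receptors bind, had 5 of 7 genes at a positive value and 0 at an unadjusted p under 0.05, with a median of 0.09 (0.04 to 0.18). MAP1LC3B stood at 45.3 and 43.4 FPKM in control, 42.0 and 37.7 after alcohol, and 42.8 and 46.0 with losartan added (log2 fold change -0.19, SE 0.13, edgeR adjusted p = 0.634). GABARAPL1 had a log2 fold change of 0.15 (SE 0.12, adjusted p = 0.709). The list of initiation complexes, which start the autophagosome, also held genes of LC3 conjugation such as ATG7. It had 10 of 17 genes at a positive value and 1 at an unadjusted p under 0.05, with a median of 0.13 (0.08 to 0.20). WIPI2, which binds the lipid made at the site of initiation, had a log2 fold change of 0.29 (SE 0.13, adjusted p = 0.434), and ATG7, the E1-like enzyme of LC3 conjugation, also 0.29 (SE 0.13, adjusted p = 0.452).

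Regulators of PINK1 and its route had 11 of 18 genes at a positive value and 0 at an unadjusted p under 0.05, with a median of 0.03 (-0.06 to 0.03). VDAC1, a channel of the outer membrane, had a log2 fold change of -0.25 (SE 0.13, edgeR adjusted p = 0.492), and the deubiquitinase USP8 0.18 (SE 0.14, adjusted p = 0.686). Regulators of BNIP3, BNIP3L and FUNDC1 had 8 of 13 genes at a negative value and 1 at an unadjusted p under 0.05, with a median of -0.06 (-0.06 to -0.02). That gene was BCL2L1, encoding the survival protein BCL-xL, at 31.3 and 34.4 FPKM in control, 25.7 and 28.3 after alcohol, and 26.2 and 27.5 with losartan added (log2 fold change -0.30, SE 0.12, adjusted p = 0.375). ULK1, the kinase that starts autophagy and phosphorylates FUNDC1, had 0.32 (SE 0.21, adjusted p = 0.632).

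Other proposed receptors had 8 of 13 genes at a negative value and 1 at an unadjusted p under 0.05, with a median of -0.07 (-0.10 to 0.07). SMURF1, a ubiquitin ligase, stood at 10.3 and 9.14 FPKM in control, 7.66 and 7.25 after alcohol, and 7.76 and 7.47 with losartan added (log2 fold change -0.42, SE 0.14, edgeR adjusted p = 0.289). PHB1 (listed as PHB), the partner of PHB2, had -0.26 (SE 0.12, adjusted p = 0.470). The list of close copies and neighbours held 6 tested genes, with 5 at a negative value, 1 (BCL2L1) at an unadjusted p under 0.05 and a median of -0.26 (-0.28 to -0.15).

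Oxygen sensors and hypoxia reference genes had 13 of 15 tested genes at a negative value in alcohol, with a median of -0.26, but only 1 gene had an unadjusted p under 0.05 and it was higher. That gene, MXI1, a MYC antagonist, stood at 13.7 and 11.5 FPKM in control, 15.9 and 17.9 after alcohol, and 21.6 and 20.8 with losartan added (log2 fold change 0.39, SE 0.14, edgeR adjusted p = 0.313). P4HA1, a collagen prolyl hydroxylase subunit, stood at 32.6 and 24.5 FPKM in control, 26.3 and 16.5 after alcohol, and 36.6 and 36.1 with losartan added (log2 fold change -0.44, SE 0.21, adjusted p = 0.452). In co-treated against alcohol cells 12 of the 15 had a positive value and 6 an unadjusted p under 0.05, with a median of 0.30 (5.55% of all genes had such a p in this comparison), and P4HA1 had 0.75 (SE 0.20, adjusted p = 0.646). As with BNIP3, the sizes of these medians rest on single libraries. Without alcohol replicate 2 they were -0.03 and 0.12, and without alcohol replicate 1 they were -0.40 and 0.75. Without control replicate 1 the first was -0.0032. MXI1 and P4HA1 each had both co-treated libraries above all other libraries, which BNIP3 did not. In co-treated against control cells 12 of the 15 had a positive value, with a median of 0.10. At an unadjusted p under 0.05, 3 were higher and 2 lower there, where 12.6% of all genes had such a p.

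Transcription factors that act on mitophagy genes had 9 of 15 genes at a positive value and 1 at an unadjusted p under 0.05, with a median of 0.08 (0.02 to 0.18). FOXO3, a forkhead factor known to act on BNIP3 and LC3 genes, stood at 4.80 and 6.85 FPKM in control, 7.01 and 10.4 after alcohol, and 8.36 and 7.75 with losartan added (log2 fold change 0.54, SE 0.19, edgeR adjusted p = 0.298). TFEB, which drives lysosomal genes, had 0.39 (SE 0.19, adjusted p = 0.480). HIF1A RNA, named after its values were seen, lay between 94.0 and 115 FPKM in all libraries, with a log2 fold change of -0.01 (SE 0.13). HIF-1 is known to be set mainly by protein stability, which RNA does not show. The part of HIF-1 in the values of BNIP3 and of the hypoxia reference genes was not tested.

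Mitochondrial content genes had 8 of 14 genes at a negative value and 2 at an unadjusted p under 0.05, with a median of -0.08 (-0.14 to 0.01). These were CYCS, encoding cytochrome c, with a log2 fold change of -0.44 (SE 0.14, edgeR adjusted p = 0.244), and HSPD1, a matrix chaperonin, with -0.30 (SE 0.12, adjusted p = 0.382). CYCS stood at 72.7 and 66.2 FPKM in control, 57.4 and 47.7 after alcohol, and 55.6 and 58.2 with losartan added. Fission and fusion genes had 5 of 8 genes at a negative value and 1 at an unadjusted p under 0.05, with a median of -0.09 (-0.13 to -0.0034). DNM1L, the GTPase that divides mitochondria, had -0.26 (SE 0.12, adjusted p = 0.449), and MFN2, which fuses them, -0.20 (SE 0.15, adjusted p = 0.687).

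**Figure D4:**
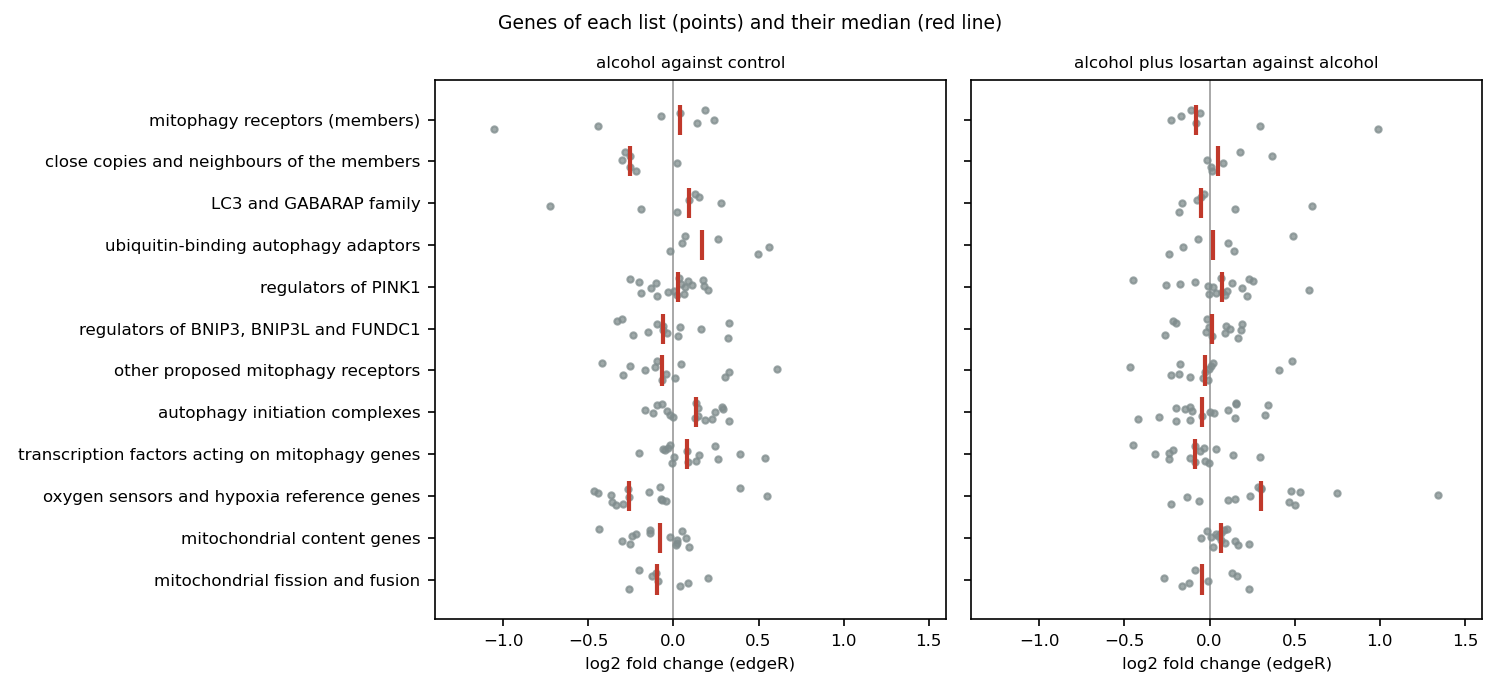
Log2 fold change fitted by edgeR (horizontal axes) of each tested gene (grey points) in the 12 gene lists (rows), for alcohol against control (left) and alcohol plus losartan against alcohol (right); red lines are list medians and vertical offsets only separate points. The hypoxia reference list has its median at -0.26 on the left and 0.30 on the right, and the adaptor list at 0.17 on the left. No gene shown passed the adjusted threshold.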

How the data were processed

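For each of the 6 libraries the authors deposited an expected count, a transcript length and an FPKM per gene. A second deposited table holds these FPKM values beside gene symbols for all libraries. The submitters' processing notes name HISAT2 2.0.4, Bowtie2 2.2.5, RSEM 1.2.12 and the build hg38. Of the deposited expected counts, 33.9% were not whole, and all were rounded. A floor of 3 counts was 0.594 to 0.612 CPM, which covers counting error alone. Genes were tested with edgeR 4.0.16 (quasi-likelihood, two-sided, TMM, filterByExpr, 6 libraries in 1 fit, R 4.3.3). The code was also run on simulated counts with known changes, drawn with the spread fitted to these data. That run checks the code and not the calls made here. SE was the log2 fold change over the square root of F. limma 3.58.1 on log2(FPKM + 1), DESeq2 1.42.0 and leaving out libraries were among the alternatives. The paper states thresholds but no test for replicates. Members and lists were chosen with earlier results of these data known. From each list, genes called in any comparison and the 2 genes with the smallest unadjusted p in alcohol against control were named. As most like BNIP3, the 5 tested genes with the highest Pearson r of log2 CPM (prior count 2) were named, among genes spanning at least 1. Of the genes chosen, 1 receptor gene and 1 list gene are not reported here, for a reason other than their values. Counts leave them out, so they describe the 7 genes named and not the whole set chosen. Gene positions and promoters came from RefSeq (GRCh38.p14). HIF1A and genes overlapping a member were named after their values were seen.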

Additional observations from a re-analysis of the deposited data

How the results depend on the processing

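Of the log2 fold changes of the 7 genes under all alternatives, 394 kept direction and side of the threshold, 15 turned sign and 4 passed the threshold, the last all without alcohol replicate 1. The cause was not tested. With main counts of 10, 2, 54 and 83 genes called for alcohol against control, co-treated against alcohol, co-treated against control and both alcohol groups against control, DESeq2 called 72, 5, 123 and 161. limma on log2(FPKM + 1) called 0, 1, 2 and 0. limma on log2(FPKM + 0.1) called 2 in the first, 3 in the third and 5 in the fourth. With no filter on low counts the numbers were 2, 1, 15 and 27. With at least 10 counts in every library they were 26 in the first, 0 in the second and 144 in the fourth. With library totals only, the first was 22. With only the groups compared, the first 3 comparisons gave 3, 4 and 158. Leaving out 1 library gave 1 to 220, 1 to 24, 2 to 184 and 6 to 407 genes, and 0 to 2, 0 to 1, 0 and 0 to 1 members called. The members called were BNIP3 and BNIP3L in the first and BNIP3 in the second and the fourth, without alcohol replicate 1.

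With the replicate number as a block, 48, 5, 136 and 256 genes and 0 members were called. BNIP3 for alcohol against control then had a log2 fold change of -1.165 (edgeR adjusted p = 0.0536), just over the threshold. Without the block, DESeq2 gave it -1.054 (DESeq2 adjusted p = 0.851). Over all tested genes, the replicate differences correlated by 0.11 (control and alcohol), -0.02 (control and co-treated) and 0.04 (alcohol and co-treated). For that reason the numbers were not taken as pairing. BNIP3 itself, however, was higher in replicate 1 than in replicate 2 in each group. The 5 genes most like BNIP3 were too, and they were chosen for that likeness. Whether the replicates of BNIP3 were paired was not tested.

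The value of PHB2 for co-treated against control turned to 0.0267 with library totals only, 0.0325 with limma on log2(FPKM + 1) and 0.0329 with log2(FPKM + 0.1). With 1 library left out, signs turned within these ranges: for alcohol against control FKBP8 -0.185 to 0.0394 and PHB2 -0.0517 to 0.161, for co-treated against control BNIP3 -0.318 to 0.237, FUNDC1 -0.0775 to 0.209, BCL2L13 -0.0696 to 0.0987, PHB2 -0.121 to 0.0921 and PINK1 -0.0175 to 0.177, and for both alcohol groups against control FUNDC1 -0.0316 to 0.255 and PHB2 -0.0862 to 0.127. BNIP3 ranged from -2.06 to -0.46 for alcohol against control, 0.393 to 1.99 for co-treated against alcohol and -1.06 to -0.249 for both groups. The BNIP3 to BNIP3L log2 ratio differed by -1.30 to -0.251 for alcohol against control and 0.350 to 1.40 for co-treated against alcohol. List medians without each library were added after seeing the data. For alcohol against control PINK1 ranged from 0.105 to 0.299, FUNDC1 from 0.0143 to 0.301 and BCL2L13 from 0.203 to 0.307, and for co-treated against control FKBP8 ranged from -0.320 to -0.174 and BNIP3L from -0.256 to -0.0317. The expected counts behind the 7 genes ran from 133 (FUNDC1) to 1756 (BNIP3) per library, so counting error weighs most on FUNDC1.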
